A study of Danio rerio with 8 samples.

Results

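The Spalt factors are a family of zinc finger transcription factors. Here the 5 zebrafish genes sall1a, sall1b, sall3a, sall3b and sall4 are described in the cornea, out of 32520 genes in the count table, together with their relative sall2. The genes were matched by symbol to Ensembl identifiers, which gave ENSDARG00000075891 for sall1b, ENSDARG00000074319 for sall1a, ENSDARG00000079613 for sall3a, ENSDARG00000057586 for sall3b, ENSDARG00000044485 for sall4 and ENSDARG00000075116 for sall2. The symbol table holds the name SALL1 for both sall1 copies. The identifier of sall1b was given, and sall1a is the remaining one. The family was chosen by the measured difference in sall1b between wounded corneas (libraries 2 to 4) and control corneas. For this reason the values of that comparison are given as a description, with no test.

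Corneas of adult wild type zebrafish of the AB background were compared between 2 conditions, with 4 libraries in each. In wounded fish the epithelium of both corneas had been abraded with an ophthalmic burr, and the corneas were collected 1.5 h later. Control fish were anesthetized and laid on a sponge for as long, without abrasion, and were collected at the same time. Each library held 6 corneas pooled from 3 fish, so the libraries and not the fish are the replicates. A wounded library and the control library of equal number shared a tank and an age. The fish were 180 days old in pair 1, 145 in pair 2, 148 in pair 3 and 183 in pair 4. Each age had its own tank, and age and tank cannot be told apart. The study left wounded library 1 out of its expression analysis after inspecting a principal component analysis. It was therefore kept out of the fitted comparison, which used wounded libraries 2 to 4 and control libraries 1 to 4, and it is shown apart from the others.

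Proteins of this family bind DNA through C2H2 zinc fingers, and an N-terminal motif of several members recruits the NuRD complex, which removes acetyl groups from histones and remodels nucleosomes. Mutations of human SALL1 cause Townes-Brocks syndrome, and mutations of human SALL4 cause Duane-radial ray syndrome, both with limb malformations. In mice Sall1 is needed for kidney development and marks microglia, Sall3 acts in retinal interneurons and cones, and Sall4 maintains pluripotent stem cells. Loss of Sall2 in mice and humans leads to failed closure of the optic fissure. The letters a and b name the copies that remain from a duplication of the genome in the ancestor of teleost fish.

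The counts per library summed to between 39472162 and 44250662. Values are given as CPM, read counts scaled by TMM to a common library size over all 8 libraries, and 3 raw counts correspond to between 0.0678 and 0.076 CPM of the unscaled totals. Levels in CPM are not corrected for gene length and are compared between libraries, not between genes. Markers of surface epithelium were abundant, with krt5 between 22600 and 41200 CPM in wounded libraries and between 41500 and 42800 CPM in control libraries. Transcripts of neighboring eye tissues were also counted. The summed level of 15 lens identifiers was 1.28 to 2.53 CPM in wounded and 0.571 to 2.22 CPM in control libraries, with 4 of the 15 at 0 in every library. The summed level of the retina list was 2530 to 2710 CPM in wounded and 1760 to 3410 CPM in control libraries. Most of this sum came from the 2 GLUL copies, which other tissues also express. The cone gene gnat2 was present at 26.8 to 43.7 CPM in wounded and 35.4 to 50.8 CPM in control libraries. The summed level of 24 epithelial markers was 65900 CPM in wounded library 1, against 97900 to 100000 CPM in the other wounded libraries and 104000 to 109000 CPM in control libraries. Most of this sum came from krt5 and krt91, which were lowest in wounded library 1, at 22600 and 19200 CPM. Not all markers were lower there, since cdh1 had 1520 CPM, against 1100 to 1280 CPM in control libraries. Within the tank of pair 1, 8 of the 24 markers were higher in the wounded library. In pooled tissue, fewer cells of a type and less RNA per cell cannot be told apart.

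The members differed in how well they were detected. Only sall1a and sall1b, 2 of the 5, passed the filter on low counts, as did sall2. Over all 8 libraries there were 1078 counts of sall1b, 666 of sall1a and 857 of sall2, against 34 of sall4, 31 of sall3b and 3 of sall3a. The 3 members below the filter were not tested and are described by their counts.

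The copy sall1b was higher in every wounded library than in every control library. It had 7.89, 5.88, 7.28 and 2.84 CPM in wounded libraries 1 to 4, against 0.373, 0.480, 0.323 and 1.205 CPM in control libraries 1 to 4. The raw counts behind these levels were 333, 240, 285 and 119 in wounded libraries and 15, 21, 13 and 52 in control libraries. Wounded library 4 was the lowest of its group and control library 4 the highest of its group, and the groups did not overlap. All 4 wounded libraries lay above all 4 control libraries for 5.23% of 18602 genes, and wounded libraries 2 to 4 lay above all control libraries for 8.16% of 18935 genes. In the comparison that chose the family, wounded libraries 2 to 4 averaged 5.33 ± 2.27 CPM (SD, n = 3) and control libraries 0.595 ± 0.412 CPM (SD, n = 4). The fitted difference was 3.14 on the log2 scale (standard error 0.48, edgeR). Without control library 4 it was 3.75, the furthest from this value among the fits with 1 library left out.

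Because this contrast selected the family, no call is given for sall1b or the other members. Among all 18935 genes in the fit, 0.734% were called higher in wounded corneas and 0.634% lower, with a limit of 0.05 after adjustment (edgeR). Other fits are used for the gene lists below. DESeq2 called 663 of 14892 genes higher and 747 lower. With the tank as a block 514 of 18935 were higher and 475 lower (edgeR). With all 8 libraries 147 of 18602 were higher and 87 lower (edgeR). The share of all genes at an unadjusted p under 0.05 is not given, so such list counts are a description. In order of the log2 difference sall1b stood in place 5 of 18935.

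**Figure D1:**
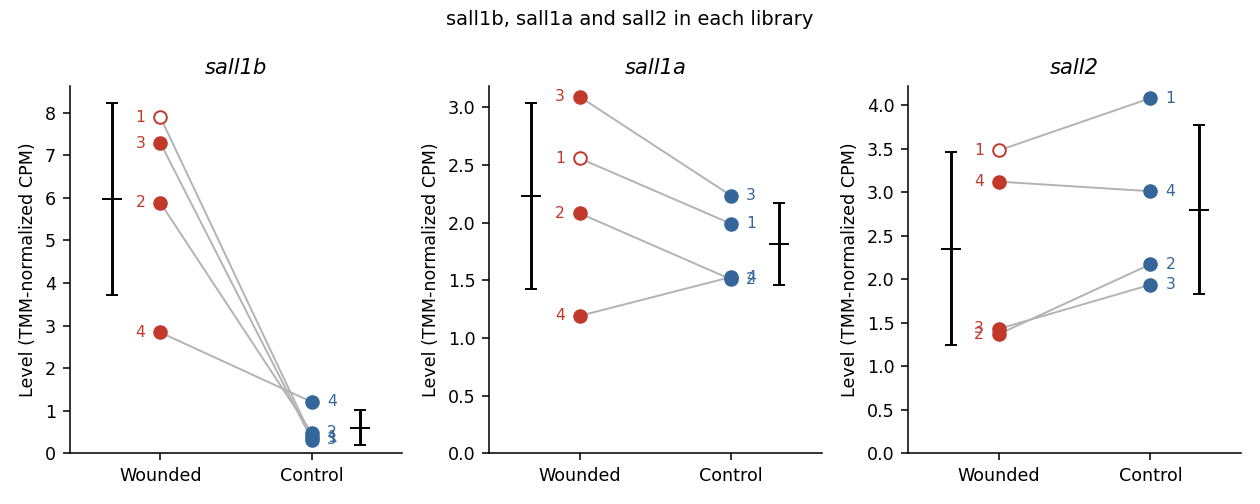
Levels of sall1b, sall1a and sall2 in TMM-normalized CPM (y axis, linear, from 0) in the 4 wounded and 4 control libraries, with numbers that name the libraries, gray lines that join libraries of the same age and tank, and black bars that give the mean ± SD of 4 libraries. The open circle is wounded library 1, and the 4 wounded libraries of sall1b, from 2.84 to 7.89 CPM, all lie above the highest control library at 1.205 CPM, whereas sall1a and sall2 overlap between the groups.

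Wounded library 1 took no part in the comparison from which the family was chosen. It held the highest level of sall1b of all 8 libraries, 7.89 CPM, which was 6.55 times the highest control library and 13.2 times the control mean of 0.595 CPM. This library was at least 2-fold above the highest control library for 1.54% of the 18602 genes with enough counts in the 8 libraries, and it stood at least 2-fold below the lowest control library for 3.92%. Genes were also ranked by the ratio to the control mean after 0.5 CPM was added to both values. In that order sall1b was in place 5 of 18602. The comparison rests on 1 library against the same 4 controls and has no test. The summed level of the epithelial markers was lower in this library, mostly through krt5 and krt91, as given above. The part of this in the value of sall1b was not tested. With wounded library 1 in the fit, the log2 difference of sall1b was 3.31 (standard error 0.46, edgeR).

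Within each tank the wounded library had more sall1b than its control library, by very different factors. The ratio of wounded to control CPM was 21.1 at 180 days (95% interval 12.6 to 38.2), 12.2 at 145 days (7.83 to 20.1) and 22.6 at 148 days (13.0 to 42.9). At 183 days it was 2.35 (1.69 to 3.33), below the lower bounds of the other tanks. These intervals are exact binomial ones and cover counting error only. The mean difference within tanks was 3.44 ± 1.52 on the log2 scale (SD, n = 4). The immediate early genes respond within minutes to stimulation, and many of them encode transcription factors. By their median, the listed ones also differed less within the tank of 183 days. The median log2 difference of 24 such genes was 0.76 there, against 1.18, 1.17 and 1.29 in tanks 1, 2 and 3, and their summed level in control library 4 was 4420 CPM, against 2760 to 3170 CPM in the other control libraries. On the wounded side the likeness did not hold. In wounded library 4, where sall1b was lowest of its group, the summed level of the immediate early genes was 7740 CPM. The wounded libraries ranged from 6280 to 8080 CPM. The part of these genes in the value of sall1b was not tested.

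The balance between the paralogs was also examined, and the share of sall1b was higher in every wounded library than in every control library. The share is uncorrected for gene length and is compared between libraries only. Of all counts of sall1a and sall1b together, sall1b held 75.5, 73.8, 70.2 and 70.4% in wounded libraries 1 to 4, against 15.8, 24.1, 12.6 and 44.1% in control libraries 1 to 4. The 95% Wilson intervals ran from 63.1 to 79.3% over the wounded libraries and from 7.53 to 53.1% over the control libraries. Shares averaged 72.5 ± 2.61% in wounded libraries and 24.2 ± 14.2% in control libraries (SD, n = 4 each). Wounded library 4, with the lowest level of sall1b in its group, thus had about the same share as wounded library 3, because its sall1a was also low. This share does not depend on the scaling of the libraries. It uses the same libraries that selected sall1b, apart from wounded library 1, and is a description.

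**Figure D2:**
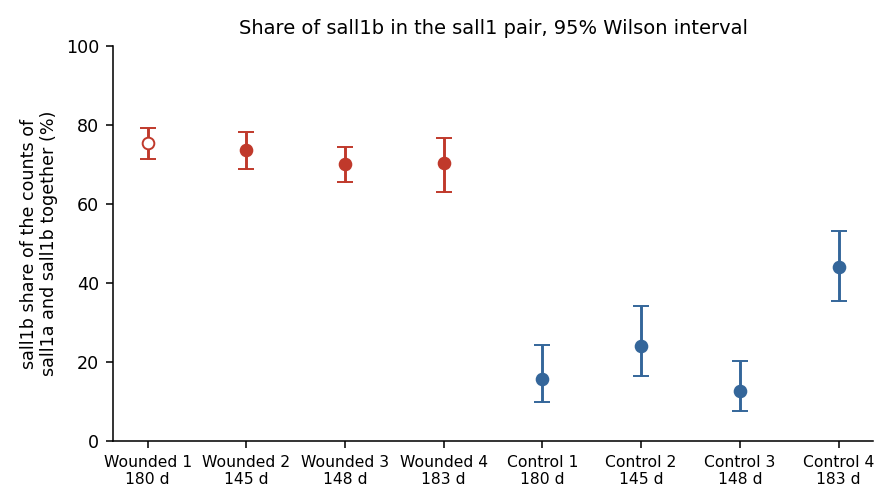
Percentage of the counts of sall1a and sall1b together that belonged to sall1b (y axis) in each wounded and control library (x axis, with age in days), with 95% Wilson intervals as bars and wounded library 1 as an open circle. The wounded libraries lie between 70.2 and 75.5%, and the control libraries between 12.6 and 44.1% with library 4 the highest.

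The other copy, sall1a, overlapped between the conditions. It had 2.56, 2.08, 3.09 and 1.19 CPM in wounded libraries 1 to 4, against 1.99, 1.51, 2.23 and 1.53 CPM in control libraries 1 to 4. The groups overlapped, since wounded library 4 was the lowest of all and the other 3 wounded libraries lay above their control partners. The fitted log2 difference was 0.22 (standard error 0.35, edgeR), and it was between -0.15 and 0.50 when 1 library was left out. Its coefficient of variation was 19.7% among control libraries and 36.2% among wounded libraries, against 69.1% and 37.7% for sall1b. Control libraries held 66 to 90 counts of sall1a and 13 to 52 counts of sall1b. For sall1b, control library 4 held the 52 counts, and the other control libraries held 13 to 21. The part of counting error in this spread was not tested.

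Few counts of sall3a, sall3b and sall4 were seen in any cornea. For sall3a there were no counts in the 4 wounded libraries, which allows up to 3 counts in each, and 2, 0, 1 and 0 counts in control libraries 1 to 4. No difference in sall3a was detectable at this depth. The copy sall3b had 3, 8, 0 and 0 counts in wounded libraries 1 to 4, against 2, 13, 3 and 2 counts in control libraries 1 to 4. Both libraries of number 2, from fish of 145 days, were the highest of their group and held 21 of the 31 counts. Markers of retina, where Sall3 is known in mice, did not all point one way in those libraries. Their summed level was 2530 CPM in wounded library 2, where the other wounded libraries had 2590 to 2710 CPM, and 1760 CPM in control library 2, where the other control libraries had 2620 to 3410 CPM, but that sum is mostly made of the 2 GLUL copies, which other tissues also express. Cone genes differed in this. Some were highest among the controls in control library 2. There gnat2, the cone transducin gene, had 50.8 CPM, against 35.4 to 48.1 CPM in the other control libraries. The opsin gene opn1lw2 had 1.92 CPM there and 0.174 to 0.695 CPM in the others. Some other cone genes were lower there than in control libraries 1 and 3, and lowest in control library 4. In control libraries 1, 2, 3 and 4, pde6c had 3.91, 1.1, 3.6 and 0.718 CPM. The ARR3 copy ENSDARG00000056511 had 7.59, 3.0, 8.24 and 1.18 CPM in these libraries. In wounded library 2 gnat2 and opn1lw2 were not the highest, with 32.5 CPM of gnat2 and 0.171 CPM of opn1lw2, where wounded library 1 had 43.7 and 0.853 CPM. This did not hold for every cone gene. Another cone opsin gene, at a low level, was the highest of its group in both libraries of number 2. The horizontal cell gene lhx1a was the second highest of its group in both libraries of number 2, at 0.588 CPM in wounded and 0.595 CPM in control library 2. The part of retinal RNA in the counts of sall3b was not tested.

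The stem cell factor sall4 was counted mainly in 1 library. It had 19, 1, 1 and 3 counts in wounded libraries 1 to 4, against 3, 0, 7 and 0 counts in control libraries 1 to 4. Wounded library 1 thus held 19 of the 34 counts and reached 0.450 CPM. The other 7 libraries lay between 0 and 7 counts, with no separation of wounded from control corneas, so that a statement on sall4 after abrasion would rest on this single library.

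**Figure D3:**
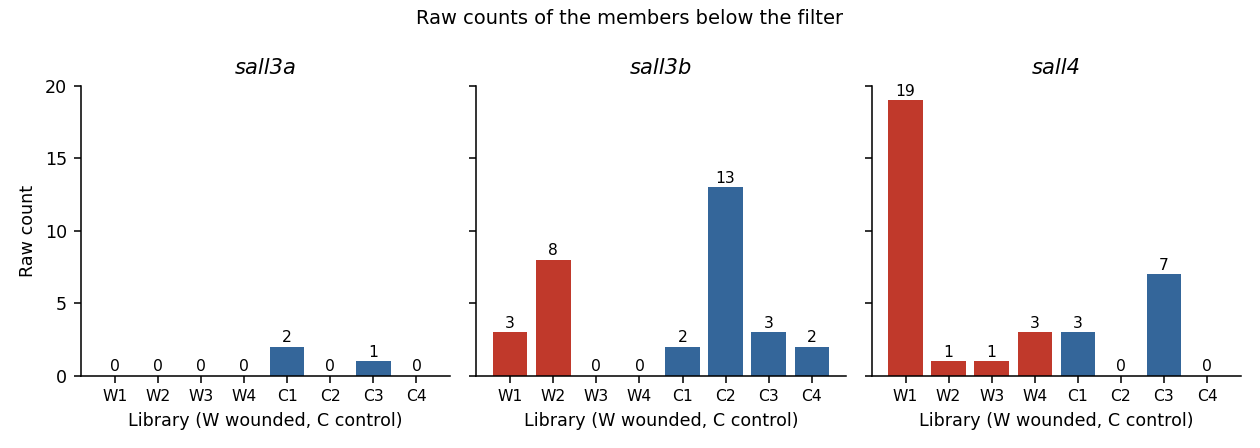
Raw counts (y axis, linear, from 0) of sall3a, sall3b and sall4 in each library, with wounded libraries W1 to W4 in red and control libraries C1 to C4 in blue. The highest values are 2 for sall3a, 13 for sall3b in control library 2 and 19 for sall4 in wounded library 1.

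The relative sall2 overlapped between the conditions. It had 3.48, 1.37, 1.43 and 3.12 CPM in wounded libraries 1 to 4, against 4.08, 2.17, 1.94 and 3.01 CPM in control libraries 1 to 4. In both conditions libraries 1 and 4, from the older fish, were the higher ones. The log2 difference between wounded and control corneas was -0.51 (standard error 0.38, edgeR), and -0.25 with all 8 libraries. The first value leaves out wounded library 1, from older fish, so the conditions were not balanced in age. With the tank as a block the log2 difference was -0.35, and -0.31 with the block and all 8 libraries (edgeR).

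Age was not used to choose the family, and so it could be tested. The older fish (180 and 183 days) were compared with the younger fish (145 and 148 days), with 4 libraries each and the condition as a covariate. In sall2 the older libraries averaged 3.42 ± 0.482 CPM and the younger ones 1.73 ± 0.390 CPM (SD, n = 4 each). All 4 older libraries, at 3.01 to 4.08 CPM, lay above all 4 younger libraries, at 1.37 to 2.17 CPM, as was the case for 1.99% of 18602 genes, with 1.8% the other way round. The log2 difference was 1.01 (standard error 0.25) and did not pass after adjustment over all genes (unadjusted p = 0.00172, adjusted p = 0.234, edgeR quasi-likelihood test), where 0.129% of genes were called, 0.086% as higher and 0.043% as lower in older fish. It passed in DESeq2 (adjusted p = 0.026). Each age class held 2 tanks, so that this difference is one between tanks as much as between ages. Both fits took the wounded and control library of a tank as independent, although age differed only between tanks. Their p-values therefore overstate the replication. In control libraries alone, with a single library per tank, the log2 difference was 0.79 (unadjusted p = 0.0616, edgeR).

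For sall1a and sall1b no difference with age was called. The older libraries averaged 1.82 ± 0.592 CPM of sall1a and the younger ones 2.23 ± 0.654 CPM (SD, n = 4 each), with a log2 difference of -0.28 (standard error 0.33, adjusted p = 0.912, edgeR). In sall1b the older libraries averaged 3.08 ± 3.37 CPM and the younger ones 3.49 ± 3.61 CPM (SD, n = 4 each). The fitted log2 difference had the other sign, at 0.23 (standard error 0.44, adjusted p = 0.953, edgeR). It was -0.24 without control library 4, and 0.97 in control libraries alone (unadjusted p = 0.261, edgeR). The difference between wounded and control corneas was also compared between the age classes by an interaction term. It was -1.27 for sall1b (standard error 0.86, unadjusted p = 0.17, adjusted p = 1.0, edgeR) and -0.37 for sall1a (standard error 0.68, adjusted p = 1.0, edgeR). For sall1b the term was -2.19 without wounded library 1 and -0.19 without control library 4, so that it rested on single libraries. Both tanks of older fish were far apart in sall1b, with ratios of 21.1 and 2.35. Over all 18602 genes 0 were called for the interaction in edgeR, or 0.0%, while 339 had an unadjusted p under 0.05 and DESeq2 called 2.

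**Figure D4:**
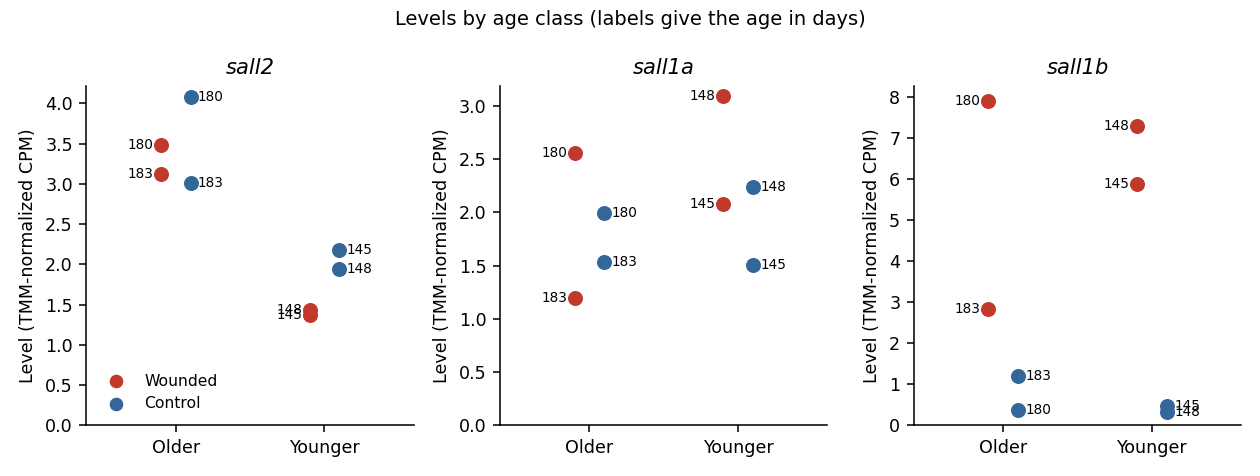
Levels of sall2, sall1a and sall1b in TMM-normalized CPM (y axis, linear, from 0) in libraries from older and younger fish, with wounded libraries in red, control libraries in blue and the age in days beside each point. The older libraries of sall2 lie at 3.01 to 4.08 CPM and the younger at 1.37 to 2.17 CPM, and in sall1a and sall1b the age classes overlap.

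Genes that neighbor sall1b were examined next, because reads cannot be told apart where exons of genes overlap, unless counting used the strand. The library kit was a directional one, but the sources do not state the strand setting of the counting. Only the spans of genes were compared, not their exons. In the RefSeq annotation of GRCz12tu, a later assembly than the GRCz11 used for the counts, the span of sall1b overlaps the annotated spans of mphosph6, an RNA exosome cofactor, and rpgrip1l, a gene of the ciliary transition zone. Neither was called. The levels of mphosph6 were 9.17 ± 0.802 CPM in wounded and 9.82 ± 1.98 CPM in control libraries (SD, n = 4 each), with a log2 difference of -0.15 (standard error 0.19, adjusted p = 0.737, edgeR). For rpgrip1l they were 4.83 ± 0.838 CPM in wounded and 4.75 ± 1.85 CPM in control libraries (SD, n = 4 each), with a log2 difference of 0.12 (standard error 0.31, adjusted p = 0.884, edgeR). The next gene on the other side, rbl2, encodes a retinoblastoma-like protein. It had 5.16 ± 1.13 CPM in wounded and 2.45 ± 1.17 CPM in control libraries (SD, n = 4 each). It did not pass (log2 difference 0.94, standard error 0.37, adjusted p = 0.208, edgeR). All 4 wounded libraries, at 3.99 to 6.39 CPM, lay above all 4 control libraries, at 1.05 to 3.91 CPM. This was so for 5.23% of 18602 genes. None of the 6 genes listed nearest to sall1a was called, among them tox3 (log2 difference -0.06) and the deubiquitinase gene cyld (-0.19). The gene next to sall2, trim110, overlaps its span and had 0.220 ± 0.101 CPM in wounded and 0.238 ± 0.0315 CPM in control libraries (SD, n = 4 each).

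The genes with the pattern most like that of sall1b over the 8 libraries were identified by Pearson's r of log2 CPM among 18601 other genes. The highest were RXFP2 (ENSDARG00000032820), which encodes a relaxin family receptor (r = 0.985), the Myc family gene mych (0.985) and the tetraspanin gene tspan4b (0.983). They were followed by rgs5b, a regulator of G protein signaling (0.981), the RND1 copy ENSDARG00000004218, a small GTPase (0.980), and RASL11B (ENSDARG00000015611), a Ras-like protein (0.978). The level of rgs5b was 73.6, 48.1, 88.4 and 29.7 CPM in wounded libraries 1 to 4, against 4.26, 3.11, 1.81 and 13.6 CPM in control libraries 1 to 4. In rgs5b, as in sall1b, library 4 was thus the lowest of the wounded and the highest of the control group. For mych the levels were 191, 148, 189 and 130 CPM in wounded and 85.7, 93.1, 85.5 and 111 CPM in control libraries 1 to 4, with library 4 in the same places. These points share their condition, tank and depth, and the correlations are a description. Only 1 of the 6 genes was also among the first 6 when wounded library 1 was left out, and 1 with Spearman's rank correlation.

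**Figure D5:**
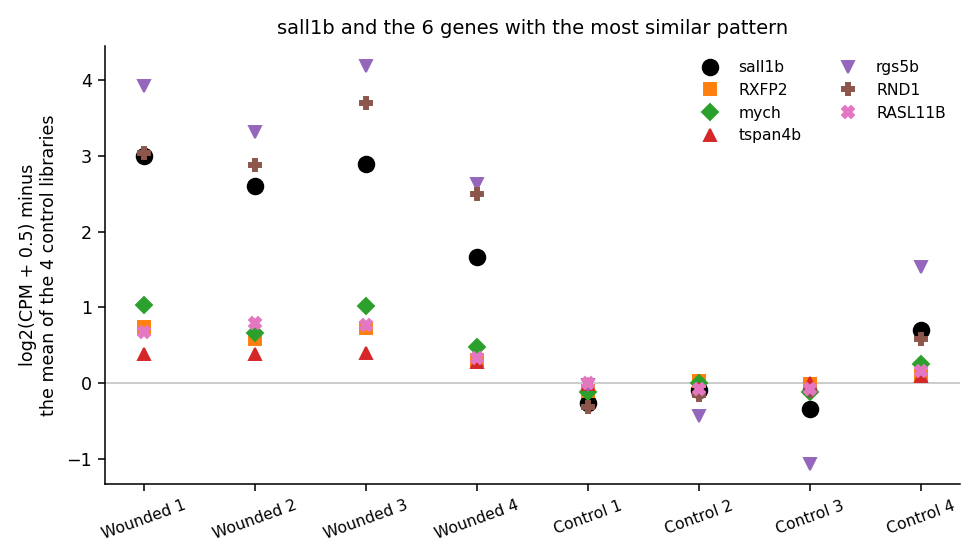
Level of sall1b (black) and of the 6 genes with the highest Pearson's r to it, as log2(CPM + 0.5) minus the mean of the 4 control libraries (y axis), in wounded libraries 1 to 4 and control libraries 1 to 4 (x axis). Control library 4 is the highest control library and wounded library 4 the lowest wounded library of sall1b, rgs5b, mych, RXFP2, tspan4b, RND1 and RASL11B.

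When the condition means were removed, so that only the differences among libraries of a group remained, the genes most like sall1b were si:ch73-56d11.3 (r = 0.9498), bin2b, which encodes a bridging integrator protein (0.947), and UBE3B (ENSDARG00000061960), which encodes a ubiquitin ligase (0.946). The gene bin2b had 239, 181, 209 and 143 CPM in wounded libraries 1 to 4, against 155, 159, 147 and 189 CPM in control libraries 1 to 4. The libraries of each group stood in the same order for bin2b as for sall1b, with wounded library 1 the highest and wounded library 4 the lowest of the wounded group. As bin2b was chosen among 18601 genes by this correlation, a like order comes with the choice and is a description.

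Transcripts of the NuRD complex, the partner of the Spalt repression motif, showed no call in edgeR. Of its 17 subunit genes with enough counts 0 were called in either direction in edgeR, where 0.734% of all genes were called higher and 0.634% lower. At an unadjusted p under 0.05 in edgeR, 2 were higher and 0 lower, with no share of all genes to set beside these counts. DESeq2 called 1 of the 17 higher, where it called 663 of 14892 genes higher. The median log2 difference was 0.04, against 0.01 over all genes tested. The remodeling subunit gene chd3 had the smallest p, at 53.5, 55.0 and 58.4 CPM in wounded libraries 2 to 4, against 39.8, 39.1, 42.1 and 44.9 CPM in control libraries 1 to 4, with a log2 difference of 0.41 (standard error 0.12, adjusted p = 0.105, edgeR). Wounded library 1, outside that fit, had 25.8 CPM of chd3, below all others. The deacetylase gene hdac1 was at 106, 126, 99.6 and 110 CPM in wounded libraries 1 to 4, against 128, 124, 121 and 137 CPM in control libraries 1 to 4, with a log2 difference of -0.19 (edgeR).

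Genes known to act with or upstream of Sall1 and Sall4 in limb and kidney include Eya, Gli and Wnt factors. Of 21 tested, 0 were called in edgeR, where 0.734% of all genes were called higher and 0.634% lower. At an unadjusted p under 0.05 in edgeR, 6 were higher and 2 lower, with no share of all genes to set beside these counts. DESeq2 called 3 of the 21 higher, where it called 663 of 14892 genes higher. The median log2 difference of the 21 was 0.14. Smallest in p were the 2 GLI2 copies, effectors of Hedgehog signaling, with log2 differences of 1.52 for ENSDARG00000020884 (standard error 0.42, adjusted p = 0.0947, edgeR) and 0.65 for ENSDARG00000025641 (standard error 0.18, adjusted p = 0.096, edgeR). The phosphatase gene eya4 (1.19) and the Wnt effector lef1 (0.72) followed.

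Among genes of the TGF-beta pathway, to which the study linked Sall1, 4 of 28 rose and 0 fell in wounded corneas at an adjusted p of 0.05 (edgeR), where 0.734% of all genes rose and 0.634% fell, and the median log2 difference was 0.23. A fit of all 8 libraries called 3 higher and 0 lower, and the fit blocked by tank called 7 higher and 0 lower. Over all genes the fit of 8 libraries called 147 of 18602 higher, and the blocked fit 514 of 18935. The list was written with results of these libraries known and is not independent evidence of a direction. Among the genes that rose were the matricellular gene CCN2 (ENSDARG00000042934, log2 difference 1.17, adjusted p = 0.00517, edgeR), the activin subunit copy INHBA (ENSDARG00000012671, 1.67, adjusted p = 0.0134, edgeR) and the receptor copy TGFBR2 (ENSDARG00000059363, 1.11, adjusted p = 0.0287, edgeR). In TGFBR2, unlike sall1b, wounded library 1 was below all control libraries, at 7.32 CPM against 7.90 to 11.1 CPM. Of the 24 immediate early genes, 14 rose and 0 fell (edgeR), where 0.734% of all genes rose, with a median log2 difference of 1.17. With the tank as a block 19 rose and 0 fell, where 514 of 18935 genes rose. With all 8 libraries 14 rose and 0 fell, where 147 of 18602 genes rose.

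Markers of cells in which Spalt genes are known from other tissues were followed as well. Of 17 genes of microglia and other leukocytes 0 were called in edgeR, where 0.734% of all genes were called higher and 0.634% lower. At an unadjusted p under 0.05 in edgeR, 5 were higher and 1 lower, with no share of all genes to set beside these counts. DESeq2 called 2 of the 17 higher. In edgeR 1 was called higher with the tank as a block and 1 with all 8 libraries. Over all genes, 663 of 14892 were higher in DESeq2, 514 of 18935 with the block and 147 of 18602 with all 8 libraries. The log2 difference was positive for 13 of the 17, with a median of 0.25. The summed level went the other way, at 4340 to 5330 CPM in wounded and 5220 to 6280 CPM in control libraries, and is mostly made of apoeb, an apolipoprotein gene, at 3190 to 4210 CPM in wounded and 4060 to 5070 CPM in control libraries (log2 difference -0.32, adjusted p = 0.187, edgeR). The microglia gene p2ry12 had at most 3 counts in any library. The macrophage factor irf8 was at 4.62, 7.59, 7.41 and 3.69 CPM in wounded libraries 1 to 4, against 2.39, 2.72, 2.06 and 3.13 CPM in control libraries 1 to 4, with a log2 difference of 1.27 (standard error 0.29, adjusted p = 0.0584, edgeR). Its groups did not overlap, as for 5.23% of 18602 genes, and library 4 was again the lowest wounded and the highest control library. Of 24 retina genes 0 were called, with 0 at an unadjusted p under 0.05 in edgeR and 0 in DESeq2. Their log2 difference was negative for 16, with a median of -0.364. Of 20 keratocyte genes 0 were called in edgeR and 1 was called higher in DESeq2. At an unadjusted p under 0.05 in edgeR, 5 were higher, again with no share of all genes beside this count. The log2 difference was positive for 18 of the 20, with a median of 0.305, against 0.012 over all genes tested. With the tank as a block 2 keratocyte genes were called higher in edgeR, and with all 8 libraries 1. Among 24 epithelial genes 3 fell and 0 rose (edgeR), where 0.634% of all genes fell, namely both PAX6 copies and grhl1. The log2 difference was negative for 18 of these 24, with a median of -0.227. A fit of all 8 libraries called 1 lower, where 87 of 18602 genes were lower. The fit blocked by tank called 5 lower, where 475 of 18935 genes were lower. Wounded library 1 had 249 CPM of the PAX6 copy ENSDARG00000045936, within the control range of 229 to 315 CPM. Of the other copy, ENSDARG00000103379, it had 38.7 CPM, below the control range of 72.2 to 100 CPM. The part of cell composition in the level of sall1b was not tested.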

How the data were processed

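Bases were called by the authors with bcl2fastq. Reads (single-end, from polyadenylated RNA) were aligned by STAR 2.6.0c to GRCz11. Gene counts came from featureCounts with the Ensembl 97 annotation. Trimmomatic is named in the submitters' processing notes. The deposited values are raw counts with no normalization for 32520 genes and 8 libraries. The strand setting is not given in the sources used here. Near-identical gene copies may share reads, so that counts of paralogs are uncertain.

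Counts were filtered by filterByExpr on the groups, scaled by TMM and fitted with the quasi-likelihood test of edgeR 4.0.16 in R 4.3.3, with Benjamini-Hochberg adjustment over all genes tested. The standard error is the log2 difference divided by the square root of F. DESeq2 1.42.0 was an alternative. Plots were drawn with matplotlib 3.10.9. The steps were tested on simulated data. Depth limits the rare members, as intervals and floors of 3 counts cover counting error only. Libraries are pools of fish, and p-values measure the spread between these libraries.

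By the study's methods, libraries of equal number share a tank, so the numbers pair the libraries. Once group means were subtracted, the correlation within pairs 1 to 4 was 0.162, 0.245, 0.224 and 0.288. No block was in the main fit, since the methods name none.

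The members and the 14 gene lists (251 of 269 symbols matched) were chosen with earlier results of these data known. Genes were named by rule: the family, the 6 genes most like sall1b, the 3 most like it after removal of the condition means, and up to 5 genes per list by smallest p, as well as defining markers. Some genes that this rule names are not reported here. In addition rbl2, tox3, cyld and the genes overlapping a member were named as neighbors after their values were seen. Identifiers got names from a symbol table (29201 of 32520), and gene order came from GRCz12tu. Sequences were not used here. Alternatives were DESeq2 size factors, DESeq2, other filters, all 8 libraries, the tank as a block, age as a covariate, another dispersion setting, and each library left out.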

Additional observations from a re-analysis of the deposited data

Results flagged for a closer look

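Among 11 sets of 4 libraries of 1 gene and condition, 2 held a library far from the other 3, where chance flags about 1 set in 20. For sall4 the highest wounded library, number 1, was at 0.450 CPM and the next at 0.0715 CPM. For sall3b the highest control library, number 2, was at 0.297 CPM and the next at 0.0745 CPM. Both values rest on under 20 counts, and the chance rate was not tested for counts this low.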

How the results depend on the processing

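The log2 difference of sall1b between wounded and control corneas was positive in all 16 alternatives, at 2.86 to 3.75 over the fits with 1 library left out, 3.01 with the tank as a block (replicate block) and 3.37 with the block and all 8 libraries. That of sall1a changed sign without wounded library 3 (-0.15), and that of sall2 was -1.003 without wounded library 4. With age, sall1b was -0.24 without control library 4 and up to 0.63 with another library left out, and sall2 passed in DESeq2 (adjusted p = 0.026) and in none of the other 12 alternatives (adjusted p up to 1.0). The interaction of sall1a was 0.073 without wounded library 4 and -1.03 without wounded library 1. The cause was not tested. With the tank as a block, the interaction of sall1b was -1.33.

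Counts over all genes moved more. For wounded against control corneas, where 139 were higher and 120 lower, they were 663 and 747 in DESeq2, 276 and 204 with every gene with a count, 514 and 475 with the block, and 456 and 349 with the block and all 8 libraries. With age as a covariate 193 were lower. With 1 library left out there were 10 to 264 higher and 7 to 192 lower genes. For age, where 16 were higher and 8 lower, counts were 111 and 84 in DESeq2, 213 and 177 with every gene with a count, and 7 and 4 in control libraries alone. In 7 libraries 21 were lower with age. With 1 library left out there were 7 to 24 higher and 3 to 21 lower genes. For the interaction DESeq2 called 1 higher and 1 lower gene, and 25 and 12 were called with every gene with a count. Of the 6 genes most like sall1b, 1 was shared without wounded library 1 and 1 with Spearman's rank correlation. Requiring an average of 1 CPM, chosen after seeing the data, left all 6.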
